A study of Mus musculus with 12 samples.

Results

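Activity-induced effector genes are the genes that neurons switch on, shortly after firing, alongside the AP-1 and EGR transcription factors. The 10 genes described here were chosen by name as Arc, Nptx2, Ptgs2, Npas4, Klf4, Atf3, Btg2, Gadd45b, Ier2 and Ier5, out of 22180 genes measured by a probeset that the platform annotation gives to a single symbol. Each of the 10 was measured by exactly 1 probeset. RNA was taken from punches of the nucleus accumbens (NAC), the ventral striatal region of reward, of adult females of the outbred hsd:ICR strain. In the postpartum group, 6 lactating mothers were collected on day 7 after parturition, with litters set to 11 pups. In the virgin group, 6 females of matching age that had never been mated were in diestrus. Virgins had shared a cage with other females while the mothers were with a male, all mice were then housed singly, and both groups were collected in the morning after light isoflurane anesthesia. Every array (GeneChip Mouse Gene 2.0 ST) carries RNA of a single mouse, so n = 6 per group counts mice. Values are PLIER intensities, a brightness on a linear scale that summarizes the probes of a probeset, and they are comparable between arrays but not between genes.

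Synaptic activity raises calcium in a neuron, calcium signals activate transcription factors such as CREB and SRF that are already present, and these start a first wave of transcription without new protein synthesis. Some products of that wave are transcription factors that pass the signal on, while others act directly on the synapse, on growth arrest or on DNA repair. The genes described here include both kinds, with Npas4, Klf4 and Atf3 among the transcription factors. Such transcripts appear and decay within a short time, so their levels in a tissue sample depend on what the animal experienced just before collection. In the NAC they are widely used as marks of neurons that responded to reward or to drugs.

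The array medians lay between 153.0 and 164.98, and Spearman correlations between arrays ranged from 0.976 to 0.990 across 41345 probesets. After Benjamini-Hochberg adjustment of limma's p-values, 0 probesets were under 0.05 (lowest adjusted p 0.106), although 3685 had an unadjusted p under 0.05. A gene is therefore said to have risen or fallen here at an unadjusted limma p under 0.01 on log2 intensities. That is the threshold of the study, which does not name its scale, and none of these calls holds after adjustment over all probesets. Markers of striatal projection neurons were measured for 12 of 15 listed genes, none at 0, with summed intensities of 26066 to 33855 in postpartum and 30693 to 36210 in virgin NAC. None of the 12 had a positive difference, and Rgs9, a striatal regulator of G protein signaling, fell by 0.26 in log2 intensity, with a standard error of 0.08 (exact permutation p = 0.0108, limma p = 0.00799), a call lost without postpartum replicate 1, 4, 5 or 6 or virgin replicate 1, 2, 5 or 6. Markers of cortical glutamatergic neurons, measured for 11 of 12 listed genes with none at 0, summed to 10249 to 15450 in postpartum and 10353 to 13503 in virgin NAC. Sums of both lists are led by their brightest probesets and do not weigh each marker equally, since intensities are not comparable between genes. Of the 11, 9 had a positive difference, and the median log2 difference was 0.13. Cux2, the marker of smallest limma p, had a negative one (-0.15, standard error 0.05, exact permutation p = 0.0152, limma p = 0.0191). In bulk tissue, fewer cells of a type and less RNA per cell cannot be told apart.

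The control region of several members is shown first, because the letters by which CREB is known to be recruited stand in it. RefSeq promoter windows (GRCm38.p6, 250 bases before to 50 after the start) were matched for 7 of the 10 genes, namely Ptgs2, Npas4, Klf4, Atf3, Btg2, Gadd45b and Ier5. Both strands were searched. TGACG, which is one side of the cAMP response element (CRE), occurred in 5 of these 7 windows (Npas4, Btg2, Klf4, Ptgs2 and Atf3) and in 20.8% of all 32851 windows. The full palindrome TGACGTCA, which contains that shorter motif on each strand, occurred in the Btg2 window and in 1.79% of all windows. An EGR motif, GCGTGGGCG or GCGGGGGCG, was found for Klf4 and in 3.47% of windows, and TATAAA for Gadd45b and in 13.6%. TGAGTCA, the AP-1 motif, was in none of the 7 and in 5.2% of windows, and the CArG box of SRF in none of the 7 and in 1.63%. These matches describe letters and not binding. In the stretches below, read 5′ to 3′ along the gene, capitals mark the CRE letters and, in Klf4, also the EGR letters farther to the right. A motif on the opposite strand appears as its reverse complement.
Npas4, chr19:4990072-4990171, minus strand, from 200 to 101 bases before the start: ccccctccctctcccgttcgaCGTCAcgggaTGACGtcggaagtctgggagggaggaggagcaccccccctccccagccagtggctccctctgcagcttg
Btg2, chr1:134079256-134079355, minus strand, from 200 to 101 bases before the start: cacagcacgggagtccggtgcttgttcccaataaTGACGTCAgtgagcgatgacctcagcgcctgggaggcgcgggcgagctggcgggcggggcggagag
Klf4, chr4:55532626-55532725, minus strand, from 250 to 151 bases before the start: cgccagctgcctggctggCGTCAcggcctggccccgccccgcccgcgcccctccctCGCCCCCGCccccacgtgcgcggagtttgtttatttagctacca
Ptgs2, chr1:150100031-150100060, plus strand, the first 30 bases of the transcript: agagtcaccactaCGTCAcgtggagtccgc

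Of the 10 genes, 1 rose in postpartum NAC at p under 0.01 and none fell. Among all 22180 genes 1.72% were called higher and 1.08% lower at that threshold. At p under 0.03 the count of higher members was also 1, against 3.68% of all genes. The gene that rose was Arc. The mean log2 intensities of Klf4, Atf3 and Ier2 lay below the median of all probesets, at percentiles 48.9, 47.0 and 25.6. The other members lay above it. Whether the signal of these 3 genes stood above background was not tested. Differences of the 10 genes had a median of 0.08 on the log2 scale and 7 were positive, while all genes had a median of -0.01 with 10622 positive. The differences of the members ran from -0.07 for Gadd45b to 0.37 for Arc.

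**Figure D1:**
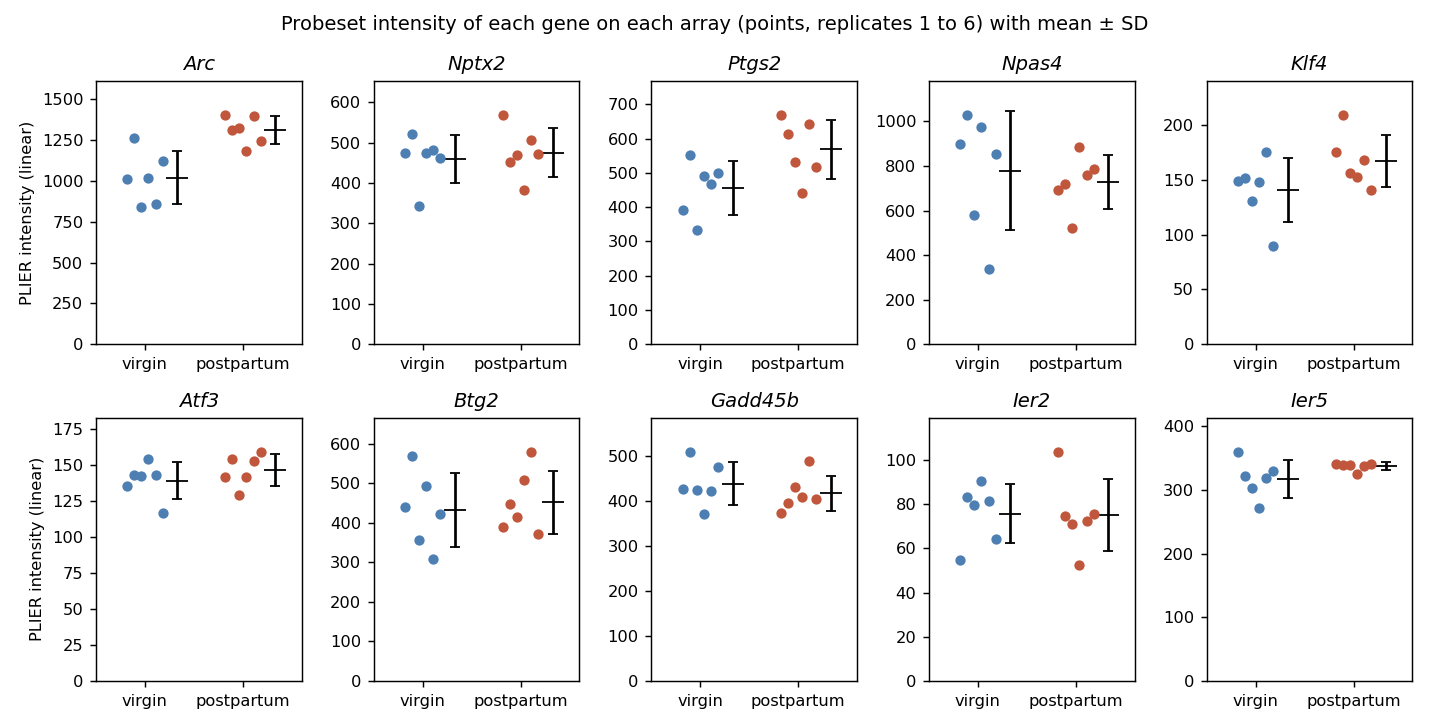
PLIER intensity (linear axis from 0) of the probeset of each gene on each of the 12 arrays, virgin in blue and postpartum in red, with mean ± SD (n = 6) in black. Arc lies higher in the postpartum group with 1 virgin mouse inside its range, Npas4 and Klf4 have low virgin mice, and the 6 postpartum values of Ier5 lie close together.

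Arc encodes a cytoskeleton-associated protein of dendrites that promotes the internalization of AMPA-type glutamate receptors, and its mRNA travels to active synapses. The 6 postpartum mice had intensities of 1401, 1310.44, 1322, 1186, 1399.50 and 1245, and the 6 virgin mice 1013, 1264, 839, 1019, 857 and 1125. All 6 postpartum values exceeded the virgin median and 4 exceeded every virgin value, while 1 virgin mouse, replicate 2, lay within the postpartum range. The means were 1311 ± 85.0 (SD, n = 6) and 1019 ± 161 (SD, n = 6), a log2 difference of 0.37 (standard error 0.10), or 1.30-fold, with a 95% confidence interval of 0.16 to 0.59 on the log2 scale (limma p = 0.0023, two-sided exact permutation p = 0.00649, adjusted p = 0.342). The difference stayed between 0.32 and 0.44, and past the threshold, with any 1 array left out. With the mean level of the cortical markers as a covariate, an alternative added after the data were seen, it was 0.29 and no longer past the threshold.

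Ptgs2, the inducible cyclooxygenase that makes prostaglandin precursors and is expressed by excitatory neurons after activity, had the second largest difference among the members. Its intensities ran from 442 to 668 with a median of 572 in postpartum and from 335 to 552 with a median of 479 in virgin NAC. Postpartum values were mostly the higher ones, with 5 of 6 above the virgin median and 3 above all virgin mice, but the groups overlapped. The log2 difference of 0.32 (standard error 0.13, 95% confidence interval 0.03 to 0.62) did not reach the threshold (limma p = 0.033, exact permutation p = 0.0498, limma p on linear intensities 0.0301). With the cortical markers as a covariate it was 0.15. Nptx2, a secreted pentraxin that clusters AMPA receptors at excitatory synapses, had nearly the same level in both groups. It ran from 383 to 567 with a median of 470.2 in postpartum and from 344 to 522 with a median of 473 in virgin NAC, and the groups overlapped almost entirely. Its log2 difference was 0.05 (standard error 0.11, 95% confidence interval -0.19 to 0.29, exact permutation p = 0.675, limma p = 0.661).

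Npas4 is a neuron-specific transcription factor that responds to calcium influx and controls inhibitory synapses. It had the widest spread of the 10 genes among virgin mice. Virgin intensities were 900.2, 1027, 578, 977, 338 and 853, a 3.04-fold range, and postpartum intensities 693, 717, 523, 887, 762 and 786, a 1.70-fold range. Only 1 postpartum mouse exceeded the virgin median of 876, yet the 2 lowest virgin mice, replicates 3 and 5, brought the group means close together. The log2 difference of -0.02 had a 95% confidence interval of -0.57 to 0.53 (exact permutation p = 0.944, limma p = 0.934), which includes a change as large as that of Arc in either direction. Leaving out virgin replicate 5 moved the difference to -0.24, and leaving out virgin replicate 2 moved it to 0.08.

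Klf4, a zinc finger transcription factor of growth arrest and cell identity, ran from 141 to 209 (median 162) in postpartum and from 89.8 to 176 (median 148) in virgin NAC. Its log2 difference was 0.27 (standard error 0.15, 95% confidence interval -0.06 to 0.59, exact permutation p = 0.115, limma p = 0.0987), with 5 of 6 postpartum mice above the virgin median and 4 virgin mice above the lowest postpartum mouse. Atf3, a stress-induced transcription factor of the CREB family, ran from 129 to 159 (median 148) and from 117 to 155 (median 143). Its log2 difference was 0.08 (standard error 0.07, 95% confidence interval -0.08 to 0.23, exact permutation p = 0.331, limma p = 0.32), and the groups overlapped. Virgin replicate 6 was the lowest mouse for both genes, and without it the differences were 0.14 for Klf4 and 0.03 for Atf3.

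Btg2 is an antiproliferative protein that speeds the removal of mRNA tails, and Gadd45b is a stress protein linked to active DNA demethylation in neurons. Btg2 ran from 370.2 to 579 (median 431) in postpartum and from 308 to 570 (median 429.8) in virgin NAC, with a log2 difference of 0.08 (standard error 0.15, 95% confidence interval -0.26 to 0.41, exact permutation p = 0.645, limma p = 0.626). Gadd45b ran from 374 to 487 (median 406) and from 371 to 508 (median 425), and its log2 difference of -0.07 was the lowest of the 10 (standard error 0.08, 95% confidence interval -0.25 to 0.11, exact permutation p = 0.416, limma p = 0.422). The groups overlapped over most of their range for both genes.

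Ier2 and Ier5 are related immediate early proteins, of which Ier5 is known to assist heat shock factor 1. Ier2 ran from 52.7 to 104 (median 73.5) in postpartum and from 54.9 to 90.5 (median 80.6) in virgin NAC, with a log2 difference of -0.02 and a standard error of 0.16 (exact permutation p = 0.909, limma p = 0.898), whose sign depended on the scaling. Ier5 ran from 326 to 342 (median 339.8) in postpartum and from 271 to 360 (median 321) in virgin NAC. All 6 postpartum values lay above the virgin median, but 2 virgin mice exceeded the lowest postpartum mouse and none of the postpartum mice exceeded the highest virgin mouse. The log2 difference was 0.09 (standard error 0.06, 95% confidence interval -0.04 to 0.22, exact permutation p = 0.141, limma p = 0.154). The SD of Ier5 was 5.85 in postpartum and 29.5 in virgin NAC, a difference in spread that was not tested.

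**Figure D2:**
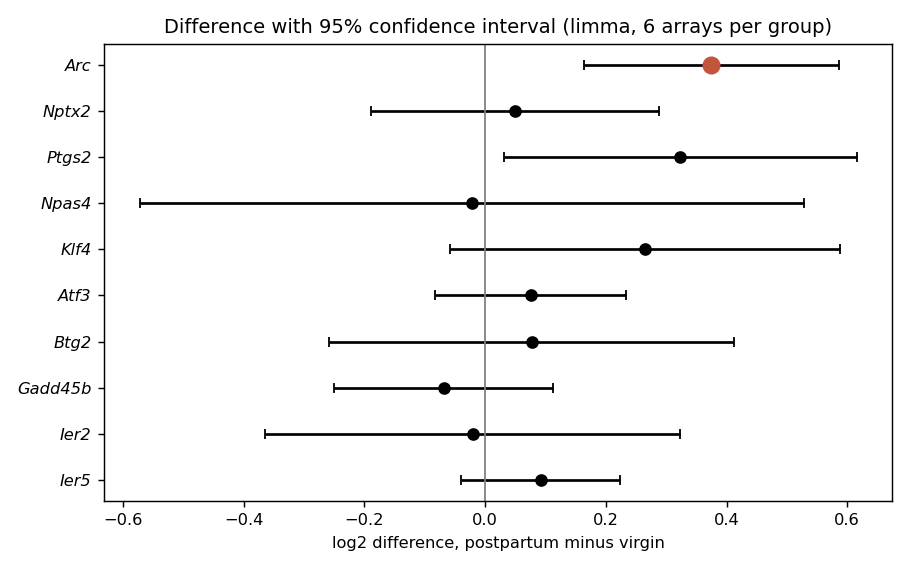
Log2 difference (postpartum minus virgin) of each gene with its 95% confidence interval from limma, 6 arrays per group. The red point is Arc, the gene with p under 0.01, the interval of Ptgs2 starts at 0.03, and the intervals of the other 8 genes include 0.

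The change of Arc was also set against that of each other member within a mouse, by the difference of their log2 values. Arc was picked for having the largest of the 10 changes, so these values are a description without a test. The change of Arc exceeded that of Gadd45b by 0.44 (standard error 0.09) and that of Nptx2 by 0.33 (standard error 0.09). In all 6 postpartum mice the difference of Arc from each of these genes lay above the virgin median. The same held for Npas4, Ier2, Ier5 and Atf3, while the count was 5 for Btg2 and Klf4 and 3 for Ptgs2. For Npas4, Ier2, Atf3, Btg2 and Ier5 the excess was between 0.28 and 0.40, with standard errors from 0.10 to 0.23. Ptgs2 and Klf4 were nearest to Arc, with an excess of 0.05 (standard error 0.09) and 0.11 (standard error 0.20).

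The 12 mice were next compared with each other irrespective of group, by the deviation of each array from the mean of its own group. Over the 45 pairs of members, the Pearson correlation of deviations ranged from -0.44 to 0.86 with a median of 0.15, and 31 were positive. Only Nptx2 and Ptgs2 passed an adjusted permutation p under 0.05 (r = 0.858, p = 0.00088, adjusted p = 0.0396, Spearman's rho = 0.811 with adjusted p = 0.0693). Their r was 0.864 among the 6 postpartum mice (exact p = 0.0292) and 0.854 among the 6 virgin mice (exact p = 0.0236). Virgin replicate 3 and postpartum replicate 4 were low for both genes, and r was 0.584 without these 2 arrays. The call is lost when postpartum replicate 1, 3, 4 or 5 or virgin replicate 2, 3 or 4 is left out, with r between 0.765 and 0.926 over the 12 single omissions and adjusted permutation p up to 0.196.

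**Figure D3:**
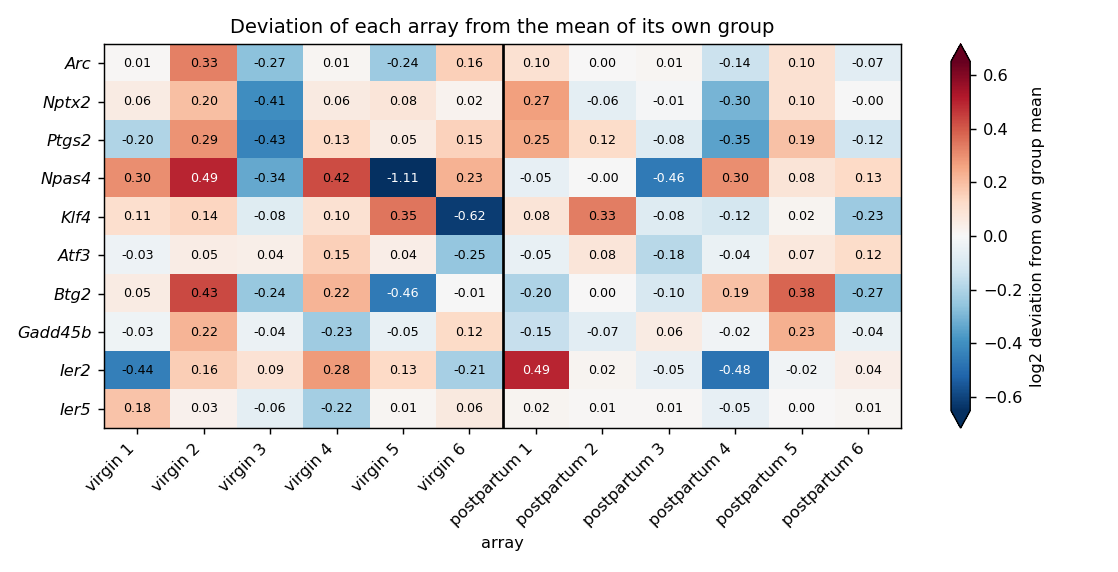
Log2 deviation of each array (columns, virgin left and postpartum right) from the mean of its own group for the 10 genes (rows), red above and blue below the mean. Virgin 3 is low for Arc, Nptx2, Ptgs2 and Npas4, virgin 5 for Arc, Npas4 and Btg2, and postpartum 4 for Nptx2, Ptgs2 and Ier2.

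A further 4 pairs had an unadjusted permutation p under 0.05. Arc correlated with Ptgs2 (r = 0.751, p = 0.00839, adjusted p = 0.106) and with Nptx2 (r = 0.687, p = 0.00944, adjusted p = 0.106). Without virgin replicates 2 and 3, the arrays farthest from the median of Arc, these r were 0.551 and 0.435. With Npas4, which also has a role at synapses, Arc had r = 0.606 (permutation p = 0.125, adjusted p = 0.597). That r was -0.465 among postpartum and 0.792 among virgin mice. Npas4 correlated with Btg2 (r = 0.762, p = 0.00656, adjusted p = 0.106). That relation had r = 0.927 among virgin mice (exact p = 0.00139) and 0.358 among postpartum mice (exact p = 0.514), a contrast between groups that was not tested. Without postpartum replicate 3 and virgin replicate 5 its r was 0.691. Arc and Btg2 had r = 0.654 (permutation p = 0.0409, adjusted p = 0.368), with 0.0603 among postpartum and 0.875 among virgin mice, and 0.441 without virgin replicates 2 and 3. Virgin replicate 2 was the highest virgin mouse for Arc, Nptx2, Ptgs2, Npas4, Btg2 and Gadd45b.

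By the same deviations, the gene most like Arc among 13302 annotated genes of above-median intensity was Fos, the AP-1 subunit used most often as a mark of active neurons (r = 0.967, rho = 0.958, n = 12 mice). Within the groups r was 0.919 in postpartum and 0.975 in virgin mice, and it was 0.943 without the 2 arrays farthest from the median. It is a description, since the gene was picked for it and both genes were read from the same RNA of each mouse. Fos ran from 230.2 to 303 in postpartum and from 138 to 305 in virgin NAC. Its log2 difference was close in size to that of Arc but less precise (0.34, standard error 0.17, exact permutation p = 0.106, limma p = 0.0732), and the lowest virgin mice for Fos, replicates 5 and 3, were also the lowest for Arc. Next were Rala, a small GTPase (r = 0.907), and Kcnd3, a potassium channel (r = 0.895).

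**Figure D4:**
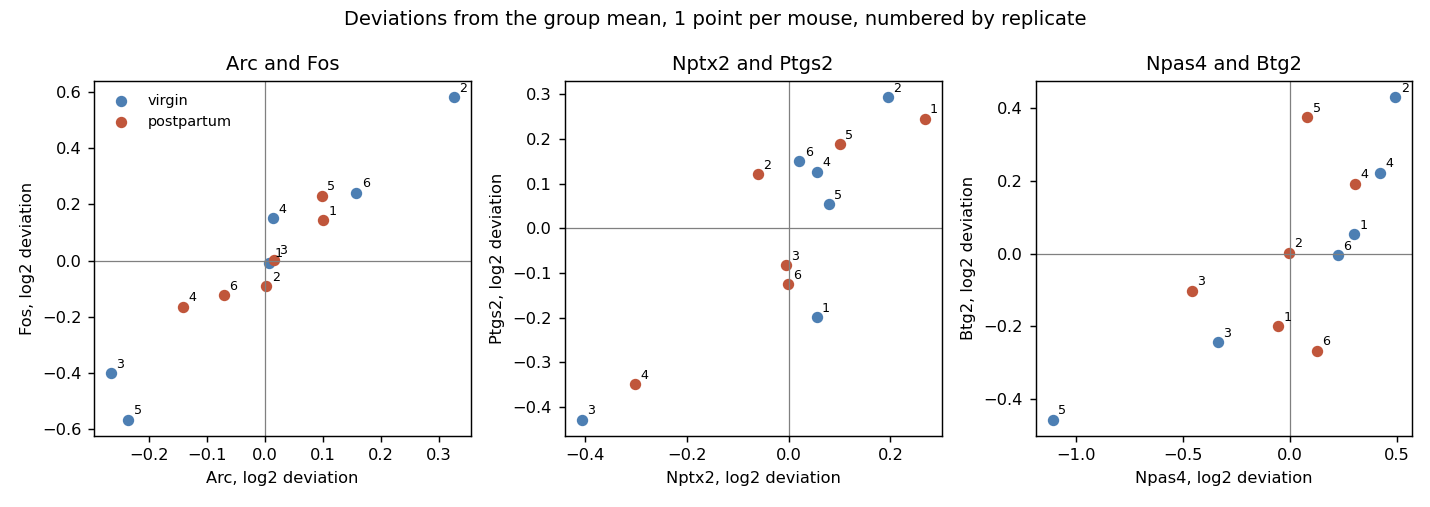
Log2 deviations from the group mean for 3 pairs of genes, 1 point per mouse numbered by replicate (virgin blue, postpartum red). Arc and Fos lie near a line (r = 0.967), Nptx2 and Ptgs2 (r = 0.858) have virgin 3 and postpartum 4 at the low end, and Npas4 and Btg2 (r = 0.762) have virgin 5 there.

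The AP-1, EGR and NR4A transcription factors belong to the same response and are not among the 10 genes. Of 13 measured factors 7 rose and none fell, with all 13 differences positive and a median of 0.34. Examples are Nr4a1 (0.68, standard error 0.13, limma p = 0.000155), Nr4a3 (0.77, standard error 0.20, limma p = 0.00221), Egr1 (0.34, standard error 0.08, limma p = 0.00158) and Fosb (0.41, standard error 0.11, limma p = 0.00327), with exact permutation p between 0.00433 and 0.00866. The count was 4 without postpartum replicate 1, virgin replicate 1 or virgin replicate 3, and 3 with the cortical markers as a covariate. The mean deviation of these factors was compared with each member, among 40 relations of the 10 genes with 4 lists chosen after the data were seen. Arc followed it (r = 0.878, permutation p = 0.0001, adjusted p = 0.004, rho = 0.86), also without the 2 arrays farthest from the median of the list, postpartum 4 and virgin 3 (r = 0.895). Nptx2 (r = 0.85, permutation p = 0.00144, adjusted p = 0.0288) and Ptgs2 (r = 0.846, permutation p = 0.00245, adjusted p = 0.0327) followed it as well, but with r of 0.413 and 0.561 without those arrays. Npas4 and Btg2 moved the other way when the same arrays were left out, from r = 0.475 to 0.872 and from 0.418 to 0.716, so that which members besides Arc followed the factors depended on these 2 mice. Ptgs2 followed the cortical markers too (r = 0.797, permutation p = 0.00398, adjusted p = 0.0398, and 0.471 without the same arrays), and the part of these markers in the values of Ptgs2 was not tested further.

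Among 40 other measured activity-induced genes 5 rose and none fell, with a median of 0.09 and 31 positive. They were Tiparp, a mono-ADP-ribosyltransferase (0.26, standard error 0.05, limma p = 0.000291), Dusp1, a phosphatase that ends MAP kinase signaling (0.31, standard error 0.07, limma p = 0.000689), Sik1, a CREB-restraining kinase (0.21, standard error 0.05, limma p = 0.0014), Peli1, a ubiquitin ligase (0.16, standard error 0.04, limma p = 0.00201), and Plk3, a stress-responsive kinase (0.30, standard error 0.09, limma p = 0.00441), with exact permutation p between 0.00216 and 0.00866. Plk3 is named to complete the count of 5. Tiparp has several probesets, and the one of largest SD had a log2 difference of -0.07. Of 25 measured family relatives of the members and 19 partners and pathway genes of Arc, Nptx2, Ptgs2 and Npas4, none rose or fell at p under 0.01 on the log2 scale. On linear intensities 1 gene of each list passed, Npas2, a clock-related relative of Npas4 that was lower (log2 difference -0.13, exact permutation p = 0.0173, limma p = 0.0267 on log2 and 0.00974 on linear intensities), and Sh3gl1, an endophilin that binds Arc, which was higher (0.15, exact permutation p = 0.0173, limma p = 0.0147 on log2 and 0.00574 on linear intensities). AMPA receptor subunit genes, whose products Arc and Nptx2 handle, had log2 differences from -0.03 (Gria4) to 0.07 (Gria3), with limma p from 0.113 to 0.643 and exact permutation p from 0.026 (Gria1) to 0.654. On linear intensities limma p was 0.0151 for Gria1 and 0.0375 for Gria2. Of 25 upstream signaling genes 3 rose by small amounts, namely Hdac5 (0.17, standard error 0.05), Hdac4 (0.18, standard error 0.06), both class IIa histone deacetylases that hold back MEF2 targets, and Creb1 (0.13, standard error 0.04). This count was 0 without postpartum replicate 1 or 5, 1 without postpartum replicate 3 or virgin replicate 1, 4 or 5, and 0 with the cortical markers as a covariate. It was 5 on linear intensities, where Srf and Ep300, a CREB coactivator, passed as well, and 1 after quantile normalization.

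Heat shock genes, which respond to handling and tissue stress, were listed as a sign of the state of the animals at collection. Of 8 measured, 2 rose and none fell, with 7 positive differences and a median of 0.26. Dnajb1, a cochaperone, had a log2 difference of 0.34 (standard error 0.05, exact permutation p = 0.00216, limma p = 2.51e-05). For Hspa1a, the inducible chaperone HSP70, the difference was 0.54 with an exact permutation p of 0.0195 (standard error 0.17, limma p = 0.00837). Hspa1a passes the threshold no longer without postpartum replicate 1, 2, 3, 5 or 6 or virgin replicate 2, 3, 5 or 6. Hspb1 had a difference of 0.39 (standard error 0.13, exact permutation p = 0.0195, limma p = 0.0116). Hspa1b had one of 0.34 (standard error 0.13, exact permutation p = 0.0303, limma p = 0.0241), and neither reached the threshold. The mean deviation of the heat shock genes had r = 0.516 with Arc (permutation p = 0.0978, adjusted p = 0.326), and its part in the change of Arc was not tested.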

How the data were processed

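Total RNA of NAC punches from 6 postpartum and 6 virgin mice was hybridised to 12 arrays, grouped by the submitters' labels. The authors summarized and normalized the scanned arrays with PLIER (submitters' processing notes: Affymetrix Power Tools 1.12.0) and deposited 1 linear intensity per probeset and array. Values under 1 were set to 1, and log2 intensities of all 41345 probesets were fitted with limma 3.58.1 (R 4.3.3, lmFit, eBayes without trend). The study names limma but not the scale, so linear intensities were an alternative. The brightest probeset of a single symbol stood for a gene. Exact two-sided permutation tests used all splits into 6 and 6 (smallest p 0.00216), and correlations 100000 permutations within groups. The number of arrays limits the precision.

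The 10 genes and the gene lists were chosen with earlier results of these data known. The rule of naming covered all 10 genes, the leading genes of each list (at most 4, by limma p), and the 3 genes most like any member with p under 0.03. Not all of the leading genes are printed here. Gria1, Gria2, Gria3, Gria4, Ep300 and Plk3 were chosen after their values were seen. Marker lists of other cell types covered interneurons (1 of 11 measured genes higher), endothelium (1 of 12 higher), pericytes (none of 9), microglia (none of 11), astrocytes (none of 10), oligodendrocytes (1 of 9 lower) and choroid plexus (none of 7), and no blood gene was measured. The genes called were Calb2 (higher), Ly6c1 (higher) and Opalin (lower). Alternatives were quantile normalization, centring, linear intensities, an offset of 16, a filter at the median, a variance trend, a robust prior, array weights, a replicate block, other probeset rules and each array left out in turn. The covariate of cortical markers was added after the data were seen.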

Additional observations from a re-analysis of the deposited data

Results flagged for a closer look

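Of 20 sets of 6 values (10 genes in each group), 2 held a value far from the others, where chance marks about 1 in 20. The Nptx2 intensity of virgin replicate 3 was 343.8, and on the log2 scale its gap to the next value was 0.71 of the group's range. The Ier5 intensity of postpartum replicate 4 was 325.9, with a gap of 0.769 of the range, also on the log2 scale.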

How the results depend on the processing

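The Arc difference kept its sign under every alternative, and its call under every one but the covariate of cortical markers. With that covariate 0 members were higher at p under 0.01, while Arc (0.291) still passed the looser threshold of 0.03. At p under 0.03 the count of higher members was 2, with Ptgs2 added, after centring each array, with an offset of 16, in probesets above the median, with a variance trend, with array weights or with the mean of a gene's probesets, and 1 to 2 with single arrays left out. Of 237 member differences recomputed, 17 changed sign, namely Ier2 after quantile normalization (0.0137), centring (0.0131) or array weights (0.0122), Npas4 after centring (0.0124), and Nptx2 with the cortical covariate (-0.0722), the others with single arrays left out. The ranges of single omissions were -0.032 to 0.109 for Nptx2, -0.243 to 0.0774 for Npas4, -0.119 to 0.0758 for Ier2, -0.0145 to 0.163 for Btg2, 0.141 to 0.335 for Klf4, 0.0256 to 0.111 for Atf3, 0.238 to 0.393 for Ptgs2, 0.0474 to 0.129 for Ier5 and -0.115 to -0.0243 for Gadd45b. Beyond the members, Tbr1 changed sign with the cortical covariate (-0.016) and Tiparp with the probeset of largest SD (-0.074). Of 60 other named genes, not all of them printed here, 30 changed call under at least 1 alternative. The count of correlated member pairs was 0 to 3 with single arrays left out. The cause of these shifts was not tested. With the replicate number as a block, 1 member was again higher at p under 0.01, Arc with a difference of 0.375, while 3 of the other activity-induced genes and 0 upstream genes were called. Deviations of same-numbered mice had r between -0.208 and 0.202 (over 0.1 in 2 of 6 pairs, best with its own number in 2 of 6). The paper states that virgin and postpartum brains were collected on the same day, but no label ties replicate numbers to days. Whether same-numbered mice shared a collection day cannot be told from these values. The number of mice, 6 per group, limits the precision.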

Other observations

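Genes that followed other members most closely over the 12 mice were looked up after the values had been seen. Oxtr, the oxytocin receptor, was most like Ptgs2 (r = 0.963 of deviations from the group mean). Its log2 difference was 0.48 (standard error 0.26). Nptx2 was most like Gm15881 (r = 0.971) and Galntl6 (r = 0.97), Npas4 most like Hint1 (r = 0.892), and Btg2 most like Gpr17 (r = 0.905), a receptor of immature oligodendrocytes. Each is the highest of 13302 genes compared, or the next to it for Galntl6, and is given as a description.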
